A study of Mus musculus with 8 samples.

Results

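The genes described here are 10 cyclic nucleotide phosphodiesterases (Pde1a, Pde1b, Pde1c, Pde2a, Pde4a, Pde4b, Pde4d, Pde7a, Pde7b and Pde8a) among the 32543 genes of the deposited tables. They were chosen by name, with knockout and control values of these data already known, and Pde1c was set against its paralogues in that comparison. Differences between the genotypes in the level of these genes are therefore given as a description, without a p-value for each gene. Where listed genes are counted as passing a threshold, the share of all tested genes stands beside the count. Such counts reuse the comparison by which the genes were chosen and are no independent support. RNA was sequenced from GFP-positive cells sorted from the embryonic mouse amygdala at E16.5, the labels' amygdalar intercalated cells. The 4 knockout libraries came from Tshz1GFP/RA embryos and the 4 control libraries from Tshz1GFP/+ embryos, so both genotypes carried 1 GFP allele of Tshz1 and the sort depended on that locus. Mice were on an outbred background, and each library was made from pooled embryos of 1 genotype. Library titles start with NX, NY, QT or RM, each used for 1 knockout and 1 control library; its meaning is not stated, nor is what the RA allele lacks. The design text speaks of triplicates, whereas the labels hold 4 libraries per genotype, all used.

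Cyclic nucleotide phosphodiesterases end cAMP and cGMP signals by hydrolysing these second messengers. In neurons that respond to dopamine, opioids or adenosine through G proteins, they set how long kinase A and kinase G stay active. The PDE1 enzymes are switched on by calcium-bound calmodulin, which ties the loss of cyclic nucleotides to calcium entry. PDE2 degrades both messengers and is stimulated by cGMP, whereas PDE4, PDE7 and PDE8 act on cAMP.

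Libraries held 6384499 to 13295631 expected counts in the knockout and 5785549 to 14535810 in the control. Tshz1, the disrupted gene, stood at 56.5 (NX), 22.2 (NY), 30.3 (QT) and 12.8 TPM (RM) in knockout libraries, against 217 (NX), 85.4 (NY), 183 (QT) and 104 TPM (RM) in control libraries (log2 fold change -2.27, SE 0.30, edgeR adjusted p = 0.0388). All 10 intercalated cell markers were detected, with a summed level of 874 to 1836 TPM in the knockout and 1318 to 2723 TPM in the control. Markers of other cell types were also detected. Those of astrocytes and radial glia summed to 346 to 1503 TPM in knockout and 80.1 to 1500 TPM in control libraries, and those of cycling progenitors to 51.4 to 344 TPM in knockout and 53.4 to 237 TPM in control libraries. Fabp7 made up nearly all of the astrocyte and radial glia sum, at 342 to 1483 TPM in knockout and 79.5 to 1475 TPM in control libraries. Pallial glutamatergic markers summed to 149 to 412 TPM in the knockout and 33.2 to 269 TPM in the control, and the 9 striatal projection neuron markers to 88.6 to 249.8 TPM in the knockout and 128 to 229 TPM in the control. Interneuron markers summed to 133 to 352 TPM in the knockout and 68.9 to 411 TPM in the control, and lists for oligodendrocytes, microglia and vascular cells each stayed at or below 34.7 TPM in the knockout and 58.7 TPM in the control. In sorted pools, fewer cells of a type and less RNA per cell cannot be told apart.

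Pde1c spans 56069804 to 56569103 of chromosome 6 (GRCm38, minus strand), Pde1a spans 79834453 to 80129458 of chromosome 2 (minus strand) and Pde1b spans 103503034 to 103530052 of chromosome 15 (plus strand). All 3 are protein-coding genes. The start regions of these calmodulin-dependent enzymes are shown because the results turn on Pde1c set against its closest paralogues. Each window runs from 250 bases before to 50 bases after an annotated start, on the strand of the gene (RefSeq, GRCm38.p6). The Pde1c windows are chr6:56369585-56369884 (start 1), chr6:56362761-56363060 (start 2) and chr6:56362343-56362642 (start 3). The Pde1c span given above reaches further upstream, to 56569103, and no window covered that end. For Pde1a the window is chr2:80129363-80129662 and for Pde1b chr15:103502784-103503083, in each case the most upstream annotated start. Capitals mark matches, on either strand, to the motifs named below.
Pde1c start 1: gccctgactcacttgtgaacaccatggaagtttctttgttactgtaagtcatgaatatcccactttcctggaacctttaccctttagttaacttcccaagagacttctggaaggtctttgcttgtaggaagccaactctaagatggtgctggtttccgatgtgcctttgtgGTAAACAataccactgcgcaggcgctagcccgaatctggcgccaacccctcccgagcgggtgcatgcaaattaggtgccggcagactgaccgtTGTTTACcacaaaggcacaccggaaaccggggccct
Pde1c start 2: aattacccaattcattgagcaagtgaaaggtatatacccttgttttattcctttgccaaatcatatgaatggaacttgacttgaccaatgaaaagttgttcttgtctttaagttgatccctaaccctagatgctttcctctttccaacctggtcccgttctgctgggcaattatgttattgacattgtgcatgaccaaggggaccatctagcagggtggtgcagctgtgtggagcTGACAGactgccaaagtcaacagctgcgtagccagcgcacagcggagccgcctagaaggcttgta
Pde1c start 3: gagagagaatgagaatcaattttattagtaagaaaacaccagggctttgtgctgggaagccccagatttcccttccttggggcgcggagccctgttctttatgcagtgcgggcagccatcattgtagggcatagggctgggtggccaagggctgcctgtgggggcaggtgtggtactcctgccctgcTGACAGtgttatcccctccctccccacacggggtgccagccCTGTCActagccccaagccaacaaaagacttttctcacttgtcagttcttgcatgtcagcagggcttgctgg
Pde1a start 1: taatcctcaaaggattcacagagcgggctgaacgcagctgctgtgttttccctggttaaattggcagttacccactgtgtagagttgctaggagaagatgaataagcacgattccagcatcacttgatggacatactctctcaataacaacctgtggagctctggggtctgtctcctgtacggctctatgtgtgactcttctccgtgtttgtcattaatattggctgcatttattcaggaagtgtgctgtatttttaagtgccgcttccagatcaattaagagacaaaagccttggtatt
Pde1b start 1: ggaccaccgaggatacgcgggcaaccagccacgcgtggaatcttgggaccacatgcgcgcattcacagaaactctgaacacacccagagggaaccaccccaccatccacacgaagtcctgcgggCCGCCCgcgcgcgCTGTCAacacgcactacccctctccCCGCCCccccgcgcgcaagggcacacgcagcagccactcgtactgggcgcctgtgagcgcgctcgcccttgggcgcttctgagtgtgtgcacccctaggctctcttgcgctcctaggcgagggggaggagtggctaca

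The motifs searched were the cAMP response element TGACGTCA, its core TGACG (contained in it), the GC box GGGCGG, the TATA box TATAAA, the MEIS core TGACAG and the forkhead core TGTTTAC. They were chosen with earlier results known. Start windows were available for 9 of the 10 genes (25 windows), and Pde7a had none in the table. The annotated spans of Pde1c, Pde4b, Pde4d and Pde7b reach further upstream than their windows, so those ends were not searched. The full cAMP response element was in 0 of the 25 windows and in 1.79% of all 32851 windows of the table. Its core was in 5 windows (20.8% of all), the GC box in 5 (35.7% of all) and the TATA box in 3 (13.6% of all). The MEIS core was in 6 windows, among them starts 2 and 3 of Pde1c, and in 19.2% of all windows. The forkhead core was in 2 windows and in 3.65% of all windows: start 1 of Pde1c held it at 2 positions, on opposite strands, and the second start of Pde1b held it at 1. The Pde1a window printed here held none of the 6 motifs. Such matches describe letters in the window and were not set against binding data.

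Pde1c was the phosphodiesterase that stood apart. Its level was 35.0 (NX), 17.7 (NY), 25.2 (QT) and 8.55 TPM (RM) in knockout libraries, against 6.19 (NX), 7.16 (NY), 8.25 (QT) and 6.29 TPM (RM) in control libraries. Every knockout library lay above every control library, although the lowest knockout library (RM) exceeded the highest control library (QT) by little. The gap was wider in CPM, which is scaled for library composition by TMM but, unlike TPM, is not corrected for transcript length: 92.2 (NX), 75.1 (NY), 77.4 (QT) and 52.2 CPM (RM) in knockout, against 17.2 (NX), 24.3 (NY), 29.9 (QT) and 28.8 CPM (RM) in control libraries. PDE1C hydrolyses cAMP and cGMP with similar affinity, unlike the other PDE1 enzymes, which favour cGMP.

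In group means, Pde1c had 74.2 ± 16.5 CPM in the knockout and 25.0 ± 5.79 CPM in the control (SD, n = 4 each), a fitted log2 fold change of 1.57 (SE 0.25) or 2.97-fold. It was higher in the knockout in 4 of 4 prefixes. Among all 14157 tested genes, 85 had a larger log2 fold change. Of the 10 phosphodiesterases, 9 had enough counts to be tested, and 0 of these passed edgeR's quasi-likelihood test adjusted over all genes, against 0.0353% of all tested genes. At an unadjusted p under 0.05, Pde1c was the 1 of 9 that passed, against 3.62% of all tested genes (1.7% higher in the knockout). DESeq2 called Pde1c as the 1 of 9 (0.275% of all tested genes), limma-voom called 0 of 9 (0.0141%), and edgeR without a low-count filter called Pde1c as the 1 of 10 (0.0933%). A replicate block by title prefix also called Pde1c as the 1 of 9 (0.198%). Every other alternative called 0 of 9, among them both fits on log2 TPM and each fit with a library left out. Pde1c was the only listed gene whose genotypes did not overlap in TPM (1.56% of all tested genes) or in CPM (2.58%). These counts use the comparison that singled Pde1c out.

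**Figure D1:**
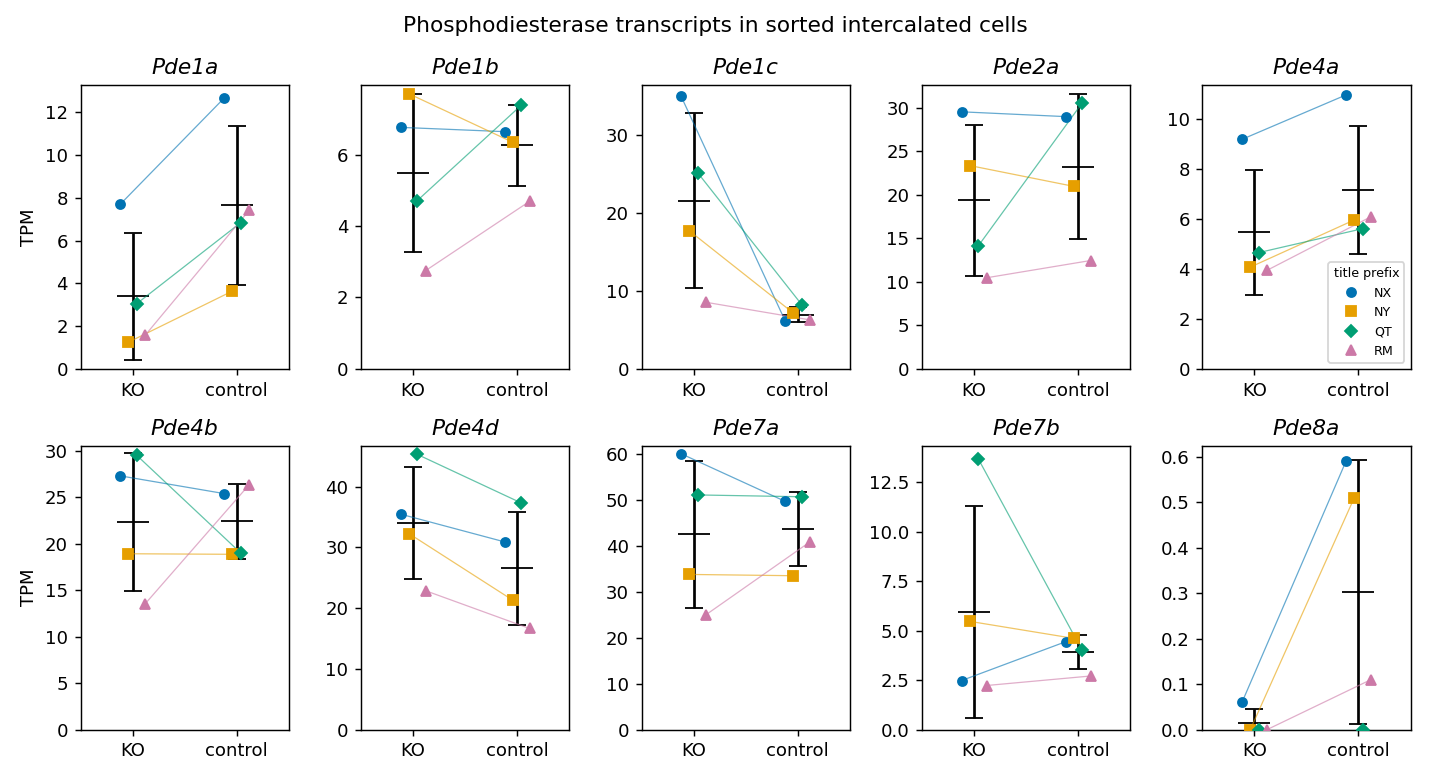
TPM of the 10 phosphodiesterase genes in 4 knockout (KO, left) and 4 control libraries (right); symbols and joining lines mark the title prefix, the wide dash the mean and the bars the SD. Each panel has its own axis from 0; in Pde1c the 4 knockout libraries sit between 8.55 and 35.0 TPM, all above the control libraries at 6.19 to 8.25 TPM.

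Its closest relatives did not share this pattern. Pde1a had 7.69 (NX), 1.25 (NY), 3.05 (QT) and 1.57 TPM (RM) in knockout libraries, against 12.7 (NX), 3.64 (NY), 6.84 (QT) and 7.41 TPM (RM) in control libraries. The knockout value was below the control value within each of the 4 prefixes, but the genotypes overlapped: the knockout NX library lay within the control range and the other 3 knockout libraries below every control library. The log2 fold change was -0.90 (SE 0.49), -1.43 without knockout NX and -0.54 without control NX. Pde1b, the PDE1 enzyme abundant in striatal neurons, had 6.76 (NX), 7.70 (NY), 4.71 (QT) and 2.75 TPM (RM) in knockout libraries, against 6.64 (NX), 6.34 (NY), 7.38 (QT) and 4.69 TPM (RM) in control libraries. Its genotypes overlapped, with a log2 fold change of -0.17 (SE 0.33).

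The balance within the PDE1 group is described here by shares and ratios, which contain the Pde1c values already given. Pde1c made up 70.8% (NX), 66.4% (NY), 76.4% (QT) and 66.4% (RM) of the summed PDE1 TPM in knockout libraries, against 24.3% (NX), 41.8% (NY), 36.7% (QT) and 34.2% (RM) in control libraries. The ratio of Pde1c to Pde1a TPM was 4.55 (NX), 14.2 (NY), 8.25 (QT) and 5.45 (RM) in the knockout and 0.489 (NX), 1.97 (NY), 1.21 (QT) and 0.849 (RM) in the control. The ratio of Pde1c to Pde1b was 5.18 (NX), 2.30 (NY), 5.34 (QT) and 3.11 (RM) in the knockout and 0.932 (NX), 1.13 (NY), 1.12 (QT) and 1.34 (RM) in the control. Neither ratio overlapped between the genotypes, but both contain the values that singled Pde1c out, and non-overlap was not counted over other gene pairs. Shares and ratios are in TPM, so they also depend on the mean transcript lengths given below. The summed PDE1 level was 30.5 ± 15.2 TPM in the knockout and 20.9 ± 3.83 TPM in the control (SD, n = 4 each), with overlapping ranges of 12.9 to 49.5 and 17.1 to 25.5 TPM.

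**Figure D2:**
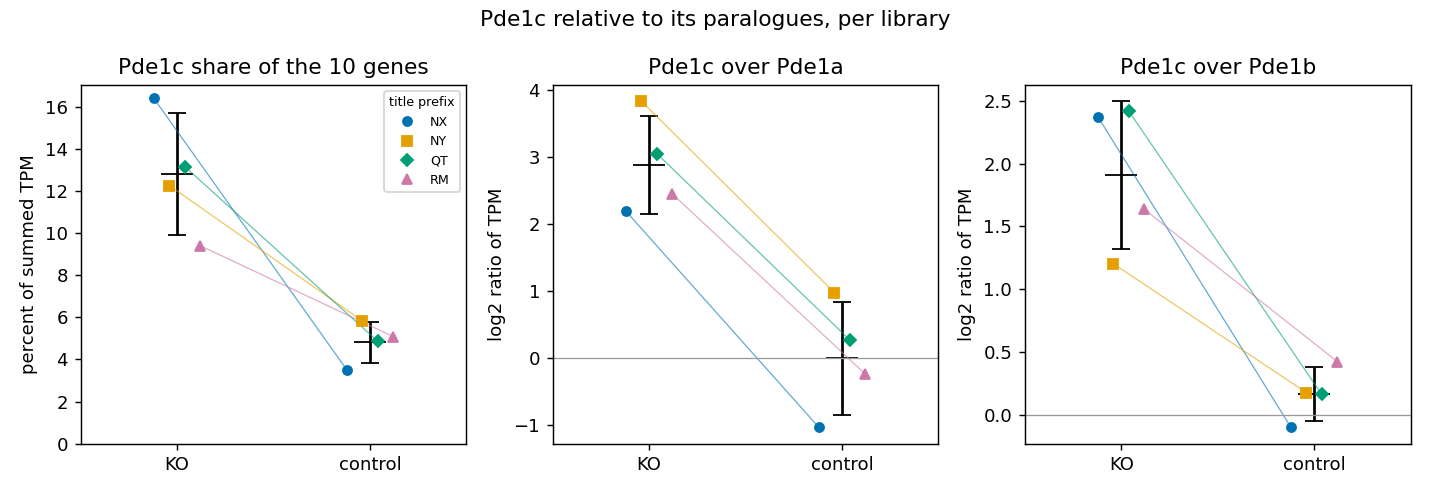
Left, percent of the summed TPM of the 10 genes that is Pde1c; middle and right, log2 ratio of Pde1c TPM to Pde1a and Pde1b TPM. Points are libraries (knockout left, control right, prefix by symbol and joining line), the wide dash is the mean and bars the SD; in all 3 panels the knockout libraries lie above the control libraries, with shares of 9.40% to 16.4% against 3.51% to 5.83%.

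Across all 10 genes, Pde1c held 12.8% ± 2.88 of the summed TPM in the knockout and 4.82% ± 0.968 in the control (SD, n = 4 each). The sum of the other 9 genes was 138 ± 43.4 TPM in the knockout and 141 ± 28.7 TPM in the control. The median log2 fold change of the 8 other tested genes was -0.11, with 3 fitted higher, 5 fitted lower and a range of -0.90 to 0.56, against a median of -0.01 over all 14157 tested genes. Including Pde1c, 4 of 9 were fitted higher, against 49.4% of all tested genes. Pde1c exceeded the median of its paralogues by 1.68 on the log2 scale. Per library, log2 CPM of Pde1c minus the median of the other 8 genes was 1.75 (NX), 1.72 (NY), 1.43 (QT) and 1.21 (RM) in the knockout, against -0.84 (NX), 0.07 (NY), 0.58 (QT) and 0.30 (RM) in the control.

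**Figure D3:**
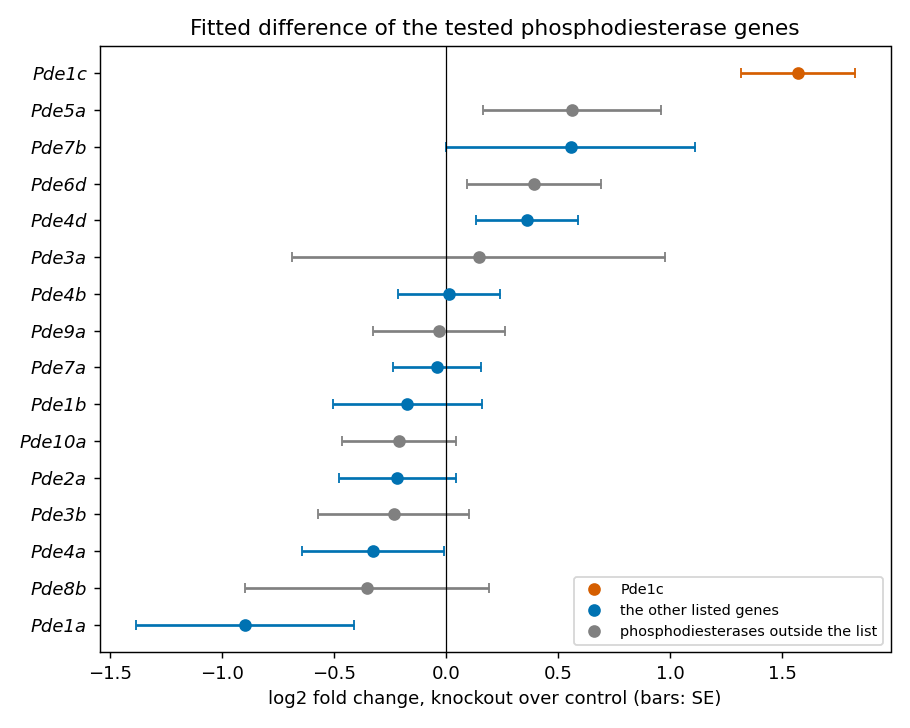
Fitted log2 fold change, knockout over control, of the 16 tested phosphodiesterase genes (points) with SE (bars), from edgeR on 4 knockout and 4 control libraries. Pde1c lies at 1.57; the 8 other listed genes lie between -0.90 and 0.56 and the 7 genes outside the list between -0.35 and 0.56.

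The levels of Pde1c in the knockout libraries can be set beside the cell type markers. In TPM the order NX, QT, NY, RM (35.0, 25.2, 17.7 and 8.55) was also that of the summed intercalated cell markers, at 1836 (NX), 1667 (QT), 1205 (NY) and 874 TPM (RM). The order was not particular to that list: striatal projection neuron markers followed it, at 249.8 (NX), 195 (QT), 154 (NY) and 88.6 TPM (RM) in the knockout. So did the sum of the other 9 phosphodiesterases, at 178.5 (NX), 166 (QT), 127 (NY) and 82.4 TPM (RM). The summed markers of astrocytes and radial glia ran the other way, at 346 (NX), 815 (QT), 1204 (NY) and 1503 TPM (RM) in the knockout. Fabp7 alone gave 342 (NX), 808 (QT), 1185 (NY) and 1483 TPM (RM) of these sums. Of the other genes of that list, all at or below 16.5 TPM in the knockout, only Slc1a3 followed this order. Control libraries had Pde1c between 6.19 and 8.25 TPM over a range of 1318 to 2723 TPM of intercalated cell markers and 80.1 to 1500 TPM of glial markers. Their spread was wider in CPM, at 17.2 (NX), 24.3 (NY), 29.9 (QT) and 28.8 CPM (RM) of Pde1c. The lowest of these was NX, the control library with the most intercalated cell markers and the fewest glial markers. The intercalated cell list had 9 of 10 markers fitted lower in the knockout, including Tshz1 itself, the 1 marker called. The part of library makeup in the Pde1c difference was not tested.

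Pde2a, the cGMP-stimulated enzyme, had 29.5 (NX), 23.3 (NY), 14.1 (QT) and 10.5 TPM (RM) in knockout libraries, against 29.0 (NX), 21.0 (NY), 30.5 (QT) and 12.4 TPM (RM) in control libraries. The genotypes overlapped, and the QT pair differed most. The log2 fold change was -0.22 (SE 0.26). In GENCODE M21, Gm45837, a protein-coding model on the same strand, overlaps its exons. Whether the annotation behind the counts held this model was not stated. The expected counts of Pde2a were whole in all 8 libraries, so no fragments were seen to be divided between it and another gene.

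The cAMP-specific PDE4 genes are the targets of rolipram, and 3 of them are listed. Pde4d was the most abundant of these and had 35.5 (NX), 32.3 (NY), 45.3 (QT) and 22.9 TPM (RM) in knockout libraries, against 30.9 (NX), 21.3 (NY), 37.3 (QT) and 16.7 TPM (RM) in control libraries. Its TPM was higher in the knockout in 4 of 4 prefixes and its CPM in 3 of 4, with overlapping genotypes and a log2 fold change of 0.36 (SE 0.23). Pde4b averaged 22.3 ± 7.42 TPM in the knockout and 22.4 ± 4.03 TPM in the control (SD, n = 4 each), with a log2 fold change of 0.01 (SE 0.23), negative without composition scaling, in both fits on log2 TPM and without some libraries. Pde4a had 9.20 (NX), 4.08 (NY), 4.66 (QT) and 3.95 TPM (RM) in knockout libraries, against 10.98 (NX), 5.97 (NY), 5.62 (QT) and 6.10 TPM (RM) in control libraries. Within all 4 prefixes the knockout value was the lower, the NX libraries were the highest of both genotypes, and the ranges overlapped (log2 fold change -0.33, SE 0.32).

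PDE7 and PDE8 enzymes degrade cAMP and are insensitive to rolipram. Pde7a was the most abundant of the 10 genes in both genotypes, at 42.5 ± 15.9 TPM in the knockout and 43.7 ± 8.09 TPM in the control (SD, n = 4 each). Its log2 fold change was -0.04 (SE 0.20), and this sign was positive without the knockout NY, control QT or control RM library. The antisense model Gm16093 overlaps its exons, and the labels do not state that the libraries keep the strand. Pde7b had 2.48 (NX), 5.47 (NY), 13.7 (QT) and 2.23 TPM (RM) in knockout libraries, against 4.44 (NX), 4.61 (NY), 4 (QT) and 2.71 TPM (RM) in control libraries. The knockout QT library was far above the rest: the log2 fold change was 0.56 (SE 0.56) with all libraries, -0.19 without that library and -0.13 in limma-voom. Pde8a was near the floor, with 1, 0, 0 and 0 counts in knockout libraries and 11, 10, 0 and 1 counts in control libraries (NX, NY, QT and RM). It was left out by the filter, and no fold change is given.

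Ordered by mean TPM in the control, Pde7a (43.7 ± 8.09) was followed by Pde4d (26.6 ± 9.32), Pde2a (23.2 ± 8.32) and Pde4b (22.4 ± 4.03). The neighbours among these overlapped in range over the 4 control libraries. A step without overlap separated Pde4b from Pde1a (7.64 ± 3.74), Pde4a (7.17 ± 2.55), Pde1c (6.97 ± 0.957) and Pde1b (6.26 ± 1.14), whose neighbours overlapped. Pde7b (3.94 ± 0.859) and Pde8a (0.303 ± 0.291) each lay below the gene before without overlap. In the knockout Pde1c took rank 4 by mean TPM, against rank 7 in the control, and Pde1a took rank 9 against rank 5. By library, Pde1c ranked between 3 and 5 in the knockout and between 5 and 8 in the control.

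RSEM also reports for each gene a mean transcript length weighted by the estimated abundance of its transcripts, a readout of transcript use. TPM is scaled by length, so this readout is not independent of the TPM values above. Pde1a, with 6 annotated transcripts in the files, had 4335 (NX), 4347 (NY), 4402 (QT) and 4514 bases (RM) in knockout libraries, against 4036 (NX), 4254 (NY), 2947 (QT) and 3134 bases (RM) in control libraries. Every knockout library had the longer mean, by 807 bases on average, and the exact two-sided permutation p over 70 orders of the libraries was 0.0286, the lowest value possible with 4 libraries per genotype; it is not adjusted over genes. Pde1a was the 1 of 9 listed genes with a varying length whose genotypes did not overlap, against 2.07% of the 8178 tested genes with a varying length and counts in every library (1.11% with the longer mean in the knockout). A longer mean lowers TPM at equal counts: the Pde1a knockout mean was 0.44 times the control mean in TPM and 0.53 times in CPM. The Pde1a lengths rest on 34.9 to 205 expected counts per knockout library and 79.1 to 367 per control library, and none of its counts was whole, as happens where RSEM divides fragments between genes.

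Pde1c, with 10 transcripts in the files, showed no such separation. Its mean length was 6165 (NX), 7793 (NY), 6063 (QT) and 7137 bases (RM) in the knockout and 6111 (NX), 6060 (NY), 7154 (QT) and 7012 bases (RM) in the control, a mean difference of 205 bases (exact two-sided permutation p = 0.629). Pde4d ranged from 4374 to 5571 bases in the knockout and from 4314 to 6138 bases in the control (exact permutation p = 0.571). Pde4b ranged from 3445 to 4019 bases in the knockout and from 3538 to 3802 bases in the control (exact permutation p = 0.771). For Pde1b, Pde2a, Pde4a, Pde7a and Pde7b the exact permutation p lay between 0.0857 and 0.571, and Pde8a, with 1 transcript, had a constant length.

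**Figure D4:**
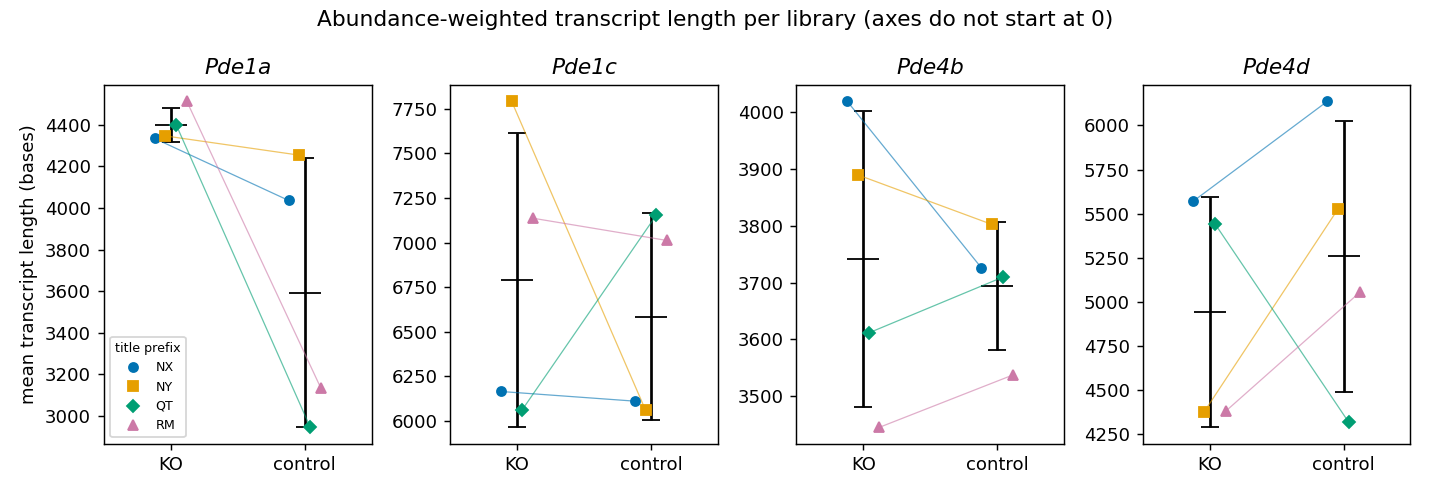
Abundance-weighted mean transcript length in bases of 4 phosphodiesterase genes with several annotated transcripts, in 4 knockout (KO, left) and 4 control libraries (right); symbols and joining lines mark the title prefix, the wide dash the mean and bars the SD, and the axes do not start at 0. For Pde1a the knockout libraries lie between 4335 and 4514 bases, above the control libraries at 2947 to 4254 bases; for the other 3 genes the genotypes overlap.

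The 14 phosphodiesterase genes outside the list gave no call. Of these, 7 had enough counts to be tested, 0 passed over all genes and 0 reached an unadjusted p under 0.05 in edgeR's quasi-likelihood test (0 passed in DESeq2 and limma-voom), and their median log2 fold change was -0.03. Pde10a, the dual enzyme characteristic of striatal projection neurons, had 63.5 (NX), 27.6 (NY), 33.1 (QT) and 20.1 TPM (RM) in knockout libraries, against 57.4 (NX), 36.6 (NY), 38.0 (QT) and 28.3 TPM (RM) in control libraries, with overlapping genotypes and a log2 fold change of -0.21 (SE 0.25). Pde9a, which is specific for cGMP, averaged 16.4 ± 8.44 TPM in the knockout and 16.5 ± 3.31 TPM in the control (SD, n = 4 each). Pde6d, a carrier of prenylated proteins named after the photoreceptor enzyme, had 37.2 (NX), 30.6 (NY), 30.5 (QT) and 19.1 TPM (RM) in the knockout, against 31.4 (NX), 24.4 (NY), 21.5 (QT) and 14.1 TPM (RM) in the control. It was higher in the knockout in 4 of 4 prefixes, overlapped in TPM but not in CPM, and had a log2 fold change of 0.39 (SE 0.30). Pde5a, specific for cGMP, had a log2 fold change of 0.56 (SE 0.40), Pde3a 0.15 (SE 0.83), Pde3b -0.23 (SE 0.34) and Pde8b -0.35 (SE 0.55). The 5 photoreceptor genes Pde6a, Pde6b, Pde6c, Pde6g and Pde6h and also Pde11a had 0 counts in all libraries, against a floor of 3 counts, and Pde4c did not pass the filter.

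The rest of the cyclic nucleotide pathway was covered by 9 lists, which together with the other phosphodiesterases held 65 tested genes. Of these, 0 passed edgeR's quasi-likelihood test over all genes, against 0.0353% of all tested genes, and 1 higher and 3 lower genes reached an unadjusted p under 0.05, against 3.62% of all tested genes. DESeq2 called 1 of the 65, Pcp4, as lower (0.275% of all tested genes), and limma-voom called 0 (0.0141%). In all, 33 were fitted higher and 32 lower. Among the calmodulin genes and their buffers (0 of 5 passed), Pcp4, which binds calmodulin and alters its calcium exchange, had 25.4 (NX), 33.2 (NY), 32.9 (QT) and 56.7 TPM (RM) in knockout libraries, against 354 (NX), 121 (NY), 166 (QT) and 166 TPM (RM) in control libraries. The genotypes did not overlap, with a log2 fold change of -2.23 (SE 0.46) and an edgeR adjusted p of 0.205. None of its counts was whole.

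Among the adenylyl cyclases, which make cAMP, 0 of 8 passed, 2 were fitted higher and 6 lower. Adcy5, the main striatal cyclase, had 3.47 (NX), 2.07 (NY), 3.29 (QT) and 1.68 TPM (RM) in knockout libraries, against 8.24 (NX), 3.86 (NY), 6.68 (QT) and 5.13 TPM (RM) in control libraries. Adcy5 ranges did not overlap, knockout libraries being lower, with a log2 fold change of -1.15 (SE 0.32) and an edgeR adjusted p of 0.797. Among the G protein alpha subunits (0 of 7 passed), Gnaz, which inhibits adenylyl cyclase, averaged 12.4 ± 3.65 TPM in the knockout and 20.2 ± 2.71 TPM in the control (SD, n = 4 each) without overlap, with a log2 fold change of -0.68 (SE 0.27, edgeR adjusted p = 1.00). Gnai3, another inhibitory alpha subunit and the 1 higher gene at an unadjusted p under 0.05, is named after its values were seen: it averaged 108 ± 42.2 TPM in the knockout and 76.3 ± 27.5 TPM in the control (SD, n = 4 each). Its log2 fold change was 0.52 (SE 0.23, edgeR adjusted p = 1.00), with the knockout value higher in 4 of 4 prefixes. The median log2 fold change was -0.32 for the cyclases and -0.07 for the alpha subunits.

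The remaining lists had no gene past an unadjusted p of 0.05 in edgeR's test. Guanylyl cyclase and nitric oxide synthase genes (0 of 6 passed, median 0.21) were led by Gucy1b3, a subunit of the nitric oxide receptor, at 78.8 ± 45.7 TPM in the knockout and 51.6 ± 33.1 TPM in the control (log2 fold change 0.60, SE 0.37). Kinase A subunits and inhibitors (0 of 9, median 0.07) were led by the regulatory subunit Prkar2b (0.31, SE 0.26), and kinase G and EPAC genes (0 of 2) by Prkg1 (0.53, SE 0.52). Anchoring proteins (0 of 11, median 0.02) were led by Akap13 (-0.48, SE 0.33), nucleotide-gated channels (0 of 3, median -0.33) by the pacemaker channel Hcn4 (-0.44, SE 0.33), and CREB pathway genes (0 of 7, median 0.30) by the coactivator Crtc1 (-0.40, SE 0.23). The gene named for each list is the one with the smallest p.

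Among 12878 other tested genes (average log2 CPM 1 or more), those most like Pde1c over the 8 libraries in log2 CPM were Tdp2 (Pearson r = 0.979), Efna5 (0.952), Utrn (0.947), Zak (0.941) and Sept2 (0.940). These values describe the 8 libraries, which share their genotype difference and their makeup. Efna5, an ephrin, had 23.0 (NX), 9.01 (NY), 9.37 (QT) and 4.22 TPM (RM) in knockout libraries, against 2.77 (NX), 4.11 (NY), 3.70 (QT) and 3.39 TPM (RM) in control libraries. Like Pde1c, by which it was picked, Efna5 was highest in the knockout NX library and lowest among knockout libraries in RM. In TPM, Tdp2, Utrn, Zak, Sept2 and Tshz1 were also highest in NX and lowest in RM among knockout libraries. Utrn, which encodes a dystrophin relative, averaged 18.2 ± 8.32 TPM in the knockout and 8.51 ± 1.56 TPM in the control (SD, n = 4 each).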

How the data were processed

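Per the submitters' processing notes, Trimmomatic 0.33, Bowtie2 and RSEM 1.2.22 were used with mm10; the annotation release and Bowtie2 version were not given in the sources used here. The deposited expected counts are RSEM's estimated fragments per gene, the deposited TPM values are scaled for transcript length and library total, and length is a mean in bases weighted by transcript abundance. FPKM values, also deposited by the authors as RSEM output, were not used. Rounded expected counts entered edgeR 4.0.16 under R 4.3.3 (filterByExpr, TMM, quasi-likelihood test, genotype as the only term, Benjamini-Hochberg over 14157 genes, called under 0.05). SEs come from the quasi-likelihood F. The procedure was tested on simulated data. DESeq2 1.42.0 and limma 3.58.1 gave alternatives. The floor of 3 counts was 0.206 to 0.519 CPM and covers counting error only, as the labels name no molecular identifiers.

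Libraries are pools of embryos that the labels do not tie to separate litters, so p-values reflect variation among these pools only. The members and lists were chosen with earlier results of these data known. Named genes are Tshz1, the 10 genes, tested phosphodiesterases, each list's called gene or else that with the smallest p, and the 5 genes most correlated with Pde1c. A planned adjustment of length tests over the 10 genes alone was replaced by the share among all genes. Positions are from GENCODE M21 (GRCm38).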

Additional observations from a re-analysis of the deposited data

Results flagged for a closer look

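In 52 groups of 4 libraries examined (levels of 17 phosphodiesterase genes and lengths of those with a varying length), 6 had a library far from the other 3. The cutoff flags about 1 in 20 by chance where values are continuous. That rate does not hold for Pde8a in the knockout or the Pde7b length in the control, where the other 3 libraries were tied. Pde4a stood apart in the NX library of both genotypes, at 9.20 TPM in the knockout (3.95 to 4.66 in the others) and 10.98 TPM in the control (5.62 to 6.10 in the others). Pde8a was at 0.06 TPM in the knockout NX library and listed at 0 in the other knockout libraries. The mean transcript length of Pde7b was 2677.08 bases in the knockout NX library, on 39 counts, and 4127 to 4148 bases in the other knockout libraries. In the control NY library it was 4151.15 bases, against 4127 in the others. The length of Pde4a was 4348.42 bases in the control RM library, against 4148 to 4150 in the others.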

How the results depend on the processing

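The excess of Pde1c over the median of its paralogues kept its direction in 18 of 18 alternatives, at 1.51 to 1.78 (1.54 to 1.76 with a library left out), against 1.68 with all libraries. These alternatives reuse the libraries in which Pde1c was singled out, so the kept direction is no independent support. The log2 fold change of Pde1c itself was 1.35 to 1.71. The count of genes called over all genes was 5, and 9 without composition factors, 19 without a low-count filter, 39 in DESeq2, 2 in limma-voom, 10 with log2(TPM + 1), 0 without both control NX and knockout QT, and 0 to 5 with a library left out (0 without knockout NY or QT or control NX, QT or RM, 1 without knockout RM). Of the pathway genes, 1 (Pcp4) was called without a filter, in DESeq2 and with log2(TPM + 1) or log2(TPM + 0.1), and 0 to 0 with a library left out. A replicate block by title prefix gave 28 called genes, Pde1c among them. Pde1c was also called in DESeq2 and without a low-count filter, and in no other alternative. Same-prefix libraries deviated together with r of 0.066 to 0.45, and 3 of 4 knockout and 4 of 4 control libraries correlated best with their own prefix, a hint from the data, not a stated pairing. Signs that turned were those of Pde4b (-0.019 without composition factors, -0.049 with log2(TPM + 1), -0.054 with log2(TPM + 0.1), -0.10 without both control NX and knockout QT) and Pde7b (-0.13 in limma-voom, -0.21 without both of those libraries). With a library left out, Pde4b ran from -0.083 to 0.18, Pde7a from -0.13 to 0.057 and Pde7b from -0.19 to 0.90. Fold changes that kept their sign with 1 library left out but moved by over 1.5 times were those of Pde1a (-1.43 to -0.54), Pde1b (-0.39 without knockout NY to -0.070 without knockout RM), Pde2a (-0.36 without control RM to -0.081 without knockout QT), Pde4a (-0.49 without knockout NX to -0.17 without control NX) and Pde4d (0.18 without knockout QT to 0.47 without control NX). Without both control NX and knockout QT, Pde1a was at -0.49, Pde2a at -0.040 and Pde4a at -0.064. Genes keeping their rank in the control order numbered 4 to 10 with a control library left out, lowest without NX. Listed genes whose transcript lengths did not overlap numbered 1 to 2 (2 without control NY). The causes of these changes were not tested.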
